A study of Mus musculus with 8 samples.

Results

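Sp7, Ifitm5, Phex, Dmp1, Mepe, Tnfsf11 and Tnfrsf11b are 7 genes known from osteoblasts, the cells that lay down bone, and from osteocytes, the cells that some osteoblasts become once bone matrix has enclosed them. They were chosen by name. Every probe set that the platform annotation maps to exactly 1 of these symbols was taken, which gave 12 of 45101 probe sets, and 7 of the 18193 genes with such a probe set. The values come from 8 Affymetrix arrays of total RNA from primary rib chondrocytes of FVB mouse embryos at stage E18.5, 4 from embryos carrying a Hoxc8 transgene and 4 from control embryos labelled wild type. Embryos of each of 4 litters were sorted by genotype, so that each litter gave 1 transgenic and 1 control sample. The promoter of the transgene, the number and sex of the embryos in a sample and whether a sample was a pool are not given in the sources used here.

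Osteoblasts secrete a matrix of type I collagen and mineralize it, and their differentiation requires the zinc finger transcription factor Sp7, also called osterix. Osteocytes make the phosphate-regulating endopeptidase Phex and the acidic matrix phosphoproteins Dmp1 and Mepe, which act in mineralization and in the control of phosphate through the hormone Fgf23. Cells of bone and cartilage also govern osteoclasts, the cells that resorb both tissues: the ligand Tnfsf11, known as RANKL, binds the receptor RANK on osteoclast precursors, and the secreted decoy receptor Tnfrsf11b, known as osteoprotegerin, captures the ligand. Sp7, Tnfsf11 and Tnfrsf11b are also made by chondrocytes of the growth plate, so a signal of these genes in a rib digest does not by itself mark a bone cell.

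The 250 bases before the annotated gene start were compared for the 5 members found in a RefSeq promoter table of build GRCm38.p6, which are Ifitm5, Phex, Dmp1 with 2 starts, Mepe and Tnfsf11. Searched on both strands was the GC box GGGCGG, the kind of sequence that many Sp family factors are known to bind. The core TGTGGT of the sites of Runx factors was searched as well, and so was the palindrome TAATTA, a core of many homeobox factor sites. The sequences of Ifitm5 and Mepe are shown because they held the GC boxes and the homeobox core found among the members. That of Tnfsf11 is shown because it is the only member with a probe set that was higher on every transgenic array than on any control array. This probe set was dim, and 0.835% of all probe sets showed the same pattern. The sequences are those of the reference strain and not of FVB, each given 5′ to 3′ on the strand of its gene, with matches in capitals.
Ifitm5, chr7:140950244-140950493, minus strand: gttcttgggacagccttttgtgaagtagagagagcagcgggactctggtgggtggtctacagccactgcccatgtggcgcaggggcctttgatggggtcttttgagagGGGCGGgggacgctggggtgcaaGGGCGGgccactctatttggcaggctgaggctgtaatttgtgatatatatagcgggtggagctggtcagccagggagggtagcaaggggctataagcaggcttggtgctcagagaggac
Mepe, chr5:104325079-104325328, plus strand: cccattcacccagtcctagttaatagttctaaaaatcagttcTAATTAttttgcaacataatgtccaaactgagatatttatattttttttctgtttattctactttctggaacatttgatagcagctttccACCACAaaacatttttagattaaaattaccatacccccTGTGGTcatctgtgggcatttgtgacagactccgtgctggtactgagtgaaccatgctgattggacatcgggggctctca
Tnfsf11, chr14:78308044-78308293, minus strand: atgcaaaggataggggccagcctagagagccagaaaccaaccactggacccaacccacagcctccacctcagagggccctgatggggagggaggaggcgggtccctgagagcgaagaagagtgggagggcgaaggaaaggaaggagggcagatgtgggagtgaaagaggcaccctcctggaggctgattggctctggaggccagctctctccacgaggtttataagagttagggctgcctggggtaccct

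Ifitm5 held 2 GC boxes, with their leftmost bases 142 and 119 bases before the start. Mepe held 1 TAATTA, 208 bases before the start, and 2 Runx cores, at 118 bases on the minus strand and at 80 bases on the plus strand. Dmp1 held 1 Runx core before its second start and no match before its first, and Phex and Tnfsf11 held no match to any of the 3 motifs in this window. Of 32851 promoters in the table, 32.7% held a GC box, 14% a Runx core and 4.84% a TAATTA. The matches describe these letters and show no binding.

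The arrays had been scaled to a common mean before deposit, and their median signals lay between 107 and 121. any 2 arrays had a Spearman correlation of 0.924 to 0.943 over all probe sets, and no arrays held identical values. As a check of the labelled cells, the cartilage markers were bright: Acan, the core protein of aggrecan, averaged 27777 ± 4895 in transgenic and 26932 ± 3327 in control samples (SD, n = 4 each). All 14 cartilage genes listed were above the signal filter described next. This does not set cartilage apart from other rib tissue, because all 10 skeletal muscle genes and all 9 genes of perichondrium and fibroblasts listed were above it too. Transcripts of bone and fibrous tissue were measured as well. Col1a1, the main collagen chain of both, gave 19971 ± 4585 in transgenic and 21310 ± 3617 in control samples, and Ibsp, the gene of bone sialoprotein, gave 538 ± 74.3 and 653 ± 242 (SD, n = 4 each). Bglap, the osteocalcin gene, was not analysed here. In whole digests, fewer cells of a type and less RNA per cell cannot be told apart. Hoxc8 itself was 4096, 3400, 3810.4 and 4235 in transgenic samples of litters 1 to 4, against 4112, 3066, 3755 and 3143 in their control littermates. Its fitted difference of 0.15 log2 (SE 0.12) did not pass (limma, adjusted p = 0.9999), so this probe set checks the genotype labels little.

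A probe set entered the test between genotypes if its mean signal over the 8 arrays was at least 110.4, the median of all probe set means. This held for 6 of the 12 probe sets and for 5 of the 7 genes, namely Sp7, Ifitm5, Phex, Dmp1 and Tnfrsf11b. No probe set of Mepe or Tnfsf11 reached the filter, nor did 1 of 2 probe sets of Phex and 2 of 3 of Dmp1; for these the difference comes from the same fit run on all 45037 probe sets. Differences are transgenic minus control on the scale log2(signal + 22.2), which understates changes of dim probe sets. Neither fit called any probe set between genotypes at an adjusted p of 0.05 by limma, that is 0% of 22495 with the filter and 0% of 45037 without it, and so 0 of the 12 member probe sets passed. With the filter, 1.08% of probe sets had an unadjusted p under 0.05 by limma, and 0 of 6 member probe sets did. Without it, 2.79% had one by limma, and so did 2 of the 12 member probe sets, both of them dim. The share among probe sets under the filter alone was not computed.

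**Figure D1:**
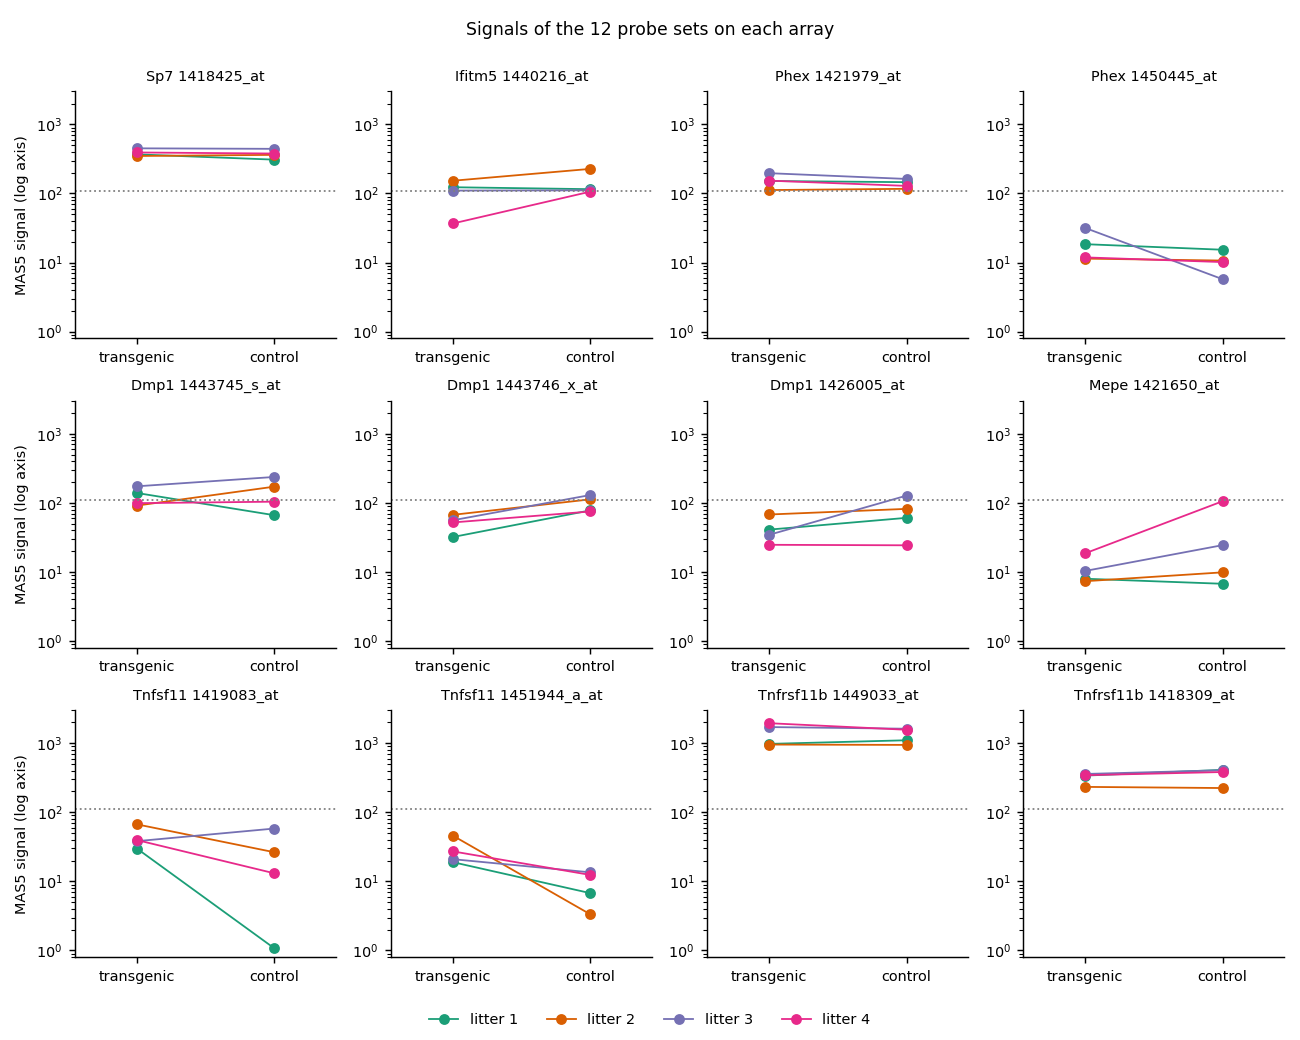
Signal of each of the 12 probe sets (log axis) in transgenic and control samples, with lines joining the samples of a litter and a dotted line at the filter signal of 110.4. Tnfrsf11b 1449033_at and Sp7 lie above the line on every array, while Mepe and both probe sets of Tnfsf11 lie below it throughout.

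Sp7, the transcription factor, was measured by probe set 1418425_at. Its signal was 368, 349, 450.4 and 392 in transgenic samples of litters 1 to 4, against 309, 362, 443 and 379 in control samples. The groups overlapped over most of their range, and litter 3 was the highest in both genotypes. Between genotypes it differed by 0.06 log2 (SE 0.15; 95% interval 0.839-fold to 1.304-fold; limma, adjusted p = 0.9999). The difference was positive in 3 of 4 litters.

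Ifitm5, also called Bril, encodes a membrane protein of mineralizing osteoblasts and was measured by probe set 1440216_at. The signal was 123, 153, 110.1 and 36.9 in transgenic samples of litters 1 to 4, against 115, 227, 111 and 106 in control samples. Apart from litter 4, where the transgenic sample was 0.346 times its littermate, and litter 2, where it was 0.674 times, the littermates were close, at ratios of 1.07 and 0.990. The fitted difference of -0.39 log2 (SE 0.34) did not pass (limma, adjusted p = 0.9999), and its 95% interval ran from 0.458-fold to 1.27-fold. Without the transgenic sample of litter 4 the difference was -0.06 log2. The transgenic mean of 106 lay under the filter signal, so that the probe set passed the filter through the control samples.

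Phex, the endopeptidase whose loss causes hypophosphatemic rickets, had 1 brighter and 1 dim probe set. Probe set 1421979_at read 152, 112, 197 and 153 in transgenic samples of litters 1 to 4, against 146, 117, 162 and 129 in control samples. Litter 3 was again the highest and litter 2 the lowest in both genotypes. The genotypes differed by 0.12 log2 (SE 0.21; limma, adjusted p = 0.9999), within 0.796-fold to 1.48-fold. Without the transgenic sample of litter 3 it was 0.0029 log2, and without that of litter 2 it was 0.24 log2. The dim probe set 1450445_at stayed between 11.4 and 31.7 in transgenic and between 5.75 and 15.3 in control samples, and its difference in the fit without the filter was 0.29 log2 (SE 0.24; limma, adjusted p = 0.9999). It was positive in 4 of 4 litters, a pattern that 5.46% of all probe sets showed, and it was 0.07 log2 without litter 3. With the offset at 1 and at 100 it was 0.71 and 0.10 log2.

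Dmp1, dentin matrix protein 1, had 3 probe sets that did not give the same picture. The brightest, 1443745_s_at, read 139, 91.5, 173.8 and 99.1 in transgenic samples of litters 1 to 4, against 66.3, 172, 237 and 104 in control samples. The transgenic sample was thus the higher of the pair in litter 1 and the lower in litters 2, 3 and 4, and the fitted difference was -0.09 log2 (SE 0.32; limma, adjusted p = 0.9999). Leaving out 1 array or 1 litter moved this estimate to between -0.41 log2 without litter 1 and 0.16 log2 without the control sample of litter 3.

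For probe set 1443746_x_at of Dmp1 the signals were 32.1, 67.2, 56.1 and 52.1 in transgenic samples of litters 1 to 4, against 78.0, 113, 130.1 and 75.1 in control samples. Every transgenic sample lay below every control sample, as it did for 0.964% of all probe sets. The difference was negative in 4 of 4 litters, as for 5.97% of all probe sets. The fit put the difference at -0.71 log2 (SE 0.29; 95% interval 0.399-fold to 0.942-fold), with an unadjusted p of 0.0288 and an adjusted p of 0.9999 (limma, without the filter). Both this probe set and 1443745_s_at were designed from the same expressed sequence, per the accessions in the annotation, and over the 8 arrays their log2 signals had a Pearson r of 0.36 and a Spearman rho of 0.24. The third probe set, 1426005_at, read 41.0, 67.9, 34.5 and 24.7 in transgenic samples of litters 1 to 4, against 60.7, 81.9, 127 and 24.3 in control samples. Its groups overlapped, with littermates of litter 4 nearly equal, and the difference was -0.50 log2 (SE 0.38; limma, adjusted p = 0.9999). It was -0.80 log2 without the control sample of litter 4 and -0.20 log2 without litter 3.

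Mepe, matrix extracellular phosphoglycoprotein, was measured by the single probe set 1421650_at. The signals were 7.98, 7.35, 10.4 and 18.6 in transgenic samples of litters 1 to 4, against 6.75, 9.87, 24.4 and 106 in control samples. The control sample of litter 4 stood far above the rest, and litter 4 had the highest signal in transgenic samples as well. The fitted difference was -0.56 log2 (SE 0.41; limma without the filter, adjusted p = 0.9999), and without the control sample of litter 4 it was -0.09 log2. The interval, from 0.368-fold to 1.26-fold, leaves the difference between genotypes poorly determined for this dim gene.

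Tnfsf11, the osteoclast-forming ligand, was dim on both of its probe sets. For 1451944_a_at the signals were 18.9, 45.7, 20.9 and 27.1 in transgenic samples of litters 1 to 4, against 6.75, 3.32, 13.5 and 12.4 in control samples. Every transgenic sample lay above every control sample. Among all probe sets 0.835% showed this, and among those under the filter 1.22%. The fit put the difference at 0.68 log2 (SE 0.25; 95% interval 1.09-fold to 2.34-fold), with an unadjusted p of 0.0203 and an adjusted p of 0.9999 (limma, without the filter), so that it was not called. The size depended on the offset, at 1.62 log2 with an offset of 1 and 0.23 log2 with an offset of 100, and it was 0.43 log2 without litter 2.

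The other probe set of Tnfsf11, 1419083_at, read 29.7, 66.8, 38.2 and 39.6 in transgenic samples of litters 1 to 4, against 1.07, 26.4, 58.2 and 13.1 in control samples. Here the groups overlapped, because the control sample of litter 3 exceeded 3 of the 4 transgenic samples. The difference was 0.61 log2 (SE 0.37; limma, adjusted p = 0.9999), and without the control sample of litter 1, the dimmest value of any member, it was 0.32 log2, and without litter 3 it was 0.95 log2. Most of these signals are of the order of the offset of 22.2, and detection calls were not used here.

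Tnfrsf11b, the decoy receptor for Tnfsf11, was the member with the clearest difference between litters. Probe set 1449033_at read 977, 956, 1712 and 1947 in transgenic samples of litters 1 to 4, against 1103, 945, 1620 and 1565 in control samples. In both genotypes the samples of litters 3 and 4 lay above those of litters 1 and 2, with no overlap. The difference between genotypes was 0.06 log2 (SE 0.24; limma, adjusted p = 0.9999), positive in 3 of 4 litters. With the litter in the model its SE was 0.09, and the interval, -0.15 to 0.26 log2, was the narrowest among the 6 member probe sets in that fit (adjusted p = 0.9998). Probe set 1418309_at, annotated with the same accession, read 340, 233, 359 and 344 in transgenic samples of litters 1 to 4, against 411, 224, 406 and 383 in control samples. On this probe set only litter 2 stood low, in both genotypes, and the difference was -0.13 log2 (SE 0.20; limma, adjusted p = 0.9999).

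The balance of the ligand and its decoy receptor was set out within litters, as the difference in log2 signal between a probe set of Tnfsf11 and Tnfrsf11b 1449033_at, transgenic minus control. With 1451944_a_at it was 0.68, 1.396, 0.19 and 0.20 log2 in litters 1 to 4, and with 1419083_at it was 1.33, 0.86, -0.49 and 0.50 log2. These values are a description, and they rest on the dim signal of the ligand, whose differences depend on the offset.

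**Figure D2:**
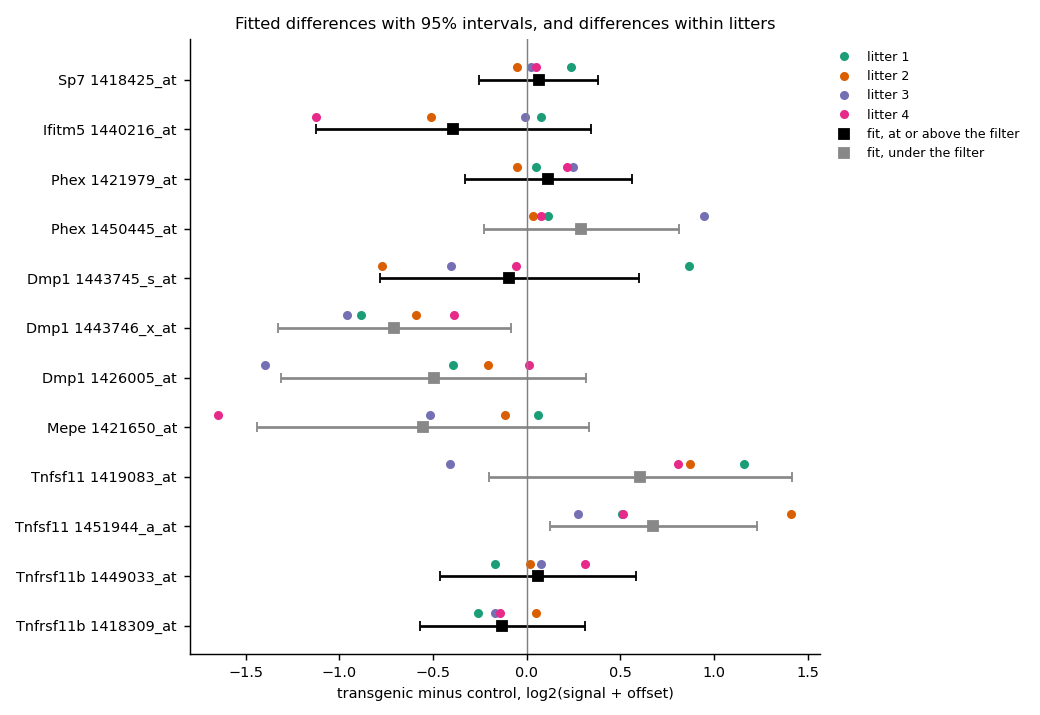
Differences between genotypes, transgenic minus control on the scale log2(signal + 22.2), for the 12 probe sets. Squares are fitted differences with their 95% intervals, black at or above the filter and grey under it, and circles are the differences within the 4 litters. The intervals of Dmp1 1443746_x_at (-1.33 to -0.09) and Tnfsf11 1451944_a_at (0.12 to 1.23) do not include 0, and neither probe set passed adjustment.

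Levels between litters were compared by a moderated F-test in limma on the 3 litter terms, beside a term for genotype. Among the 22495 probe sets at or above the filter, 2041, or 9.07%, passed an adjusted p of 0.05, and among the 6 member probe sets there 1 did, Tnfrsf11b 1449033_at (adjusted p = 0.0034). Its litter levels, averaged over genotypes on the log scale, were 1038, 950.1, 1665 and 1746 for litters 1 to 4, a span of 0.86 log2. The call was held in all 8 alternatives tried for this test, with adjusted p from 0.00138 without litter 1 to 0.0432 without litter 2. For Tnfrsf11b 1418309_at the adjusted p was 0.0646, and without litter 2 it was 0.956.

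The other members did not pass between litters. Ifitm5 had litter levels of 119, 187, 111 and 65.0, a span of 1.26 log2 (limma, adjusted p = 0.134). Dmp1 1443745_s_at spanned 0.92 log2 with litter 3 highest (adjusted p = 0.269), Phex 1421979_at 0.56 log2 with litter 3 highest (adjusted p = 0.459) and Sp7 0.38 log2 with litter 3 highest (adjusted p = 0.368). In the fit without the filter 2.21% of probe sets passed, and Mepe, which spanned 1.29 log2 with litter 4 highest, had an adjusted p of 0.332. Among the 66 pairs of member probe sets, Ifitm5 and Tnfrsf11b 1449033_at ran in the most opposed order, with a Pearson r of -0.77 and a Spearman rho of -0.93 over 8 arrays that share litters in pairs. This pair was picked for its value, and with Tnfrsf11b 1418309_at both measures were -0.55.

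**Figure D3:**
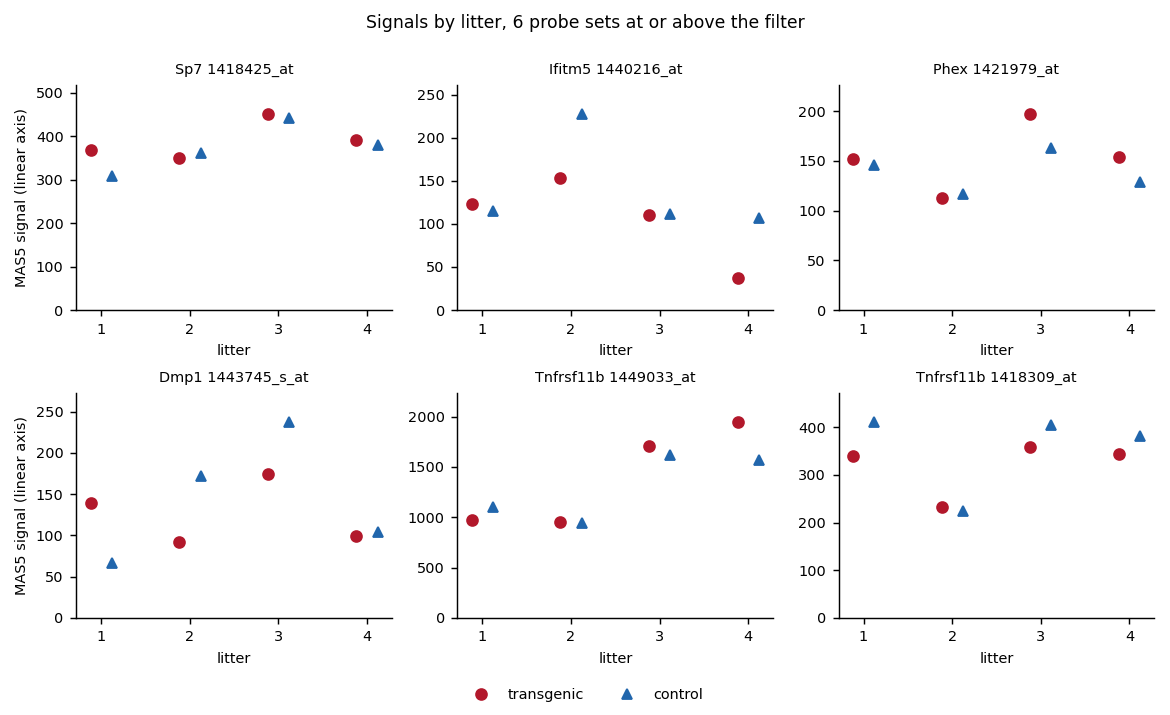
Signals (linear axis from 0) of the 6 probe sets at or above the filter by litter, circles for transgenic and triangles for control samples. Tnfrsf11b 1449033_at lies between 945 and 1103 in litters 1 and 2 and between 1565 and 1947 in litters 3 and 4. The widest gap between littermates is in litter 4, at 1947 in the transgenic and 1565 in the control sample.

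Tissue markers moved with the litters too. The summed signal of the cartilage list was 360420, 388588, 348073 and 335243 in transgenic samples of litters 1 to 4, against 375114, 428866, 336656 and 324874 in control samples. It was highest in litter 2 and lowest in litter 4 in both genotypes. The summed signal of the skeletal muscle list was 38841, 28352, 30262 and 39515 in transgenic samples of litters 1 to 4, against 40552, 28893, 29851 and 40614 in control samples, so it was high in litters 1 and 4. The part of tissue composition in the litter difference of Tnfrsf11b was not tested.

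Other genes of bone were compared on the same fit, each by its brightest probe set. Of 20 genes of bone matrix and its regulators, 13 were tested; 0 passed in either direction, 3 differences were positive and 10 negative, and the median was -0.06 log2, against 0.00 over the 10979 genes tested. Dlx5, a homeobox factor that acts before Sp7 in osteoblasts, read 423, 326, 460 and 284 in transgenic samples of litters 1 to 4, against 395, 546, 601 and 303 in control samples (-0.27 log2, SE 0.21). Ibsp read 427, 583, 577 and 564 in transgenic samples, against 426, 858, 866 and 463 in control samples (-0.21 log2, SE 0.22). Neither passed (limma, adjusted p = 0.9999 each). The osteocyte genes Sost and Fgf23 did not reach the filter, with means of 23.0 and 46.7 in transgenic and 20.1 and 38.5 in control samples. Between litters 8 of the 13 genes passed, Col1a1 among them (adjusted p = 0.0199), where 9.99% of all genes tested did. Lists of other tissues also lay above that share, among them skeletal muscle and hypertrophic chondrocytes at 50% each and cartilage at 35.7%, while the endothelial list had 0%.

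Genes of mineralization and phosphate handling gave 8 tested of 14, with 4 positive and 4 negative differences, 0 calls and a median of -0.01 log2. Mgp, the matrix Gla protein that inhibits mineralization, stood at -0.14 log2 (SE 0.13), and Fam20c, the kinase that phosphorylates secreted matrix proteins such as Dmp1, at -0.15 log2 (SE 0.14; limma, adjusted p = 0.9999 each). Alpl, tissue-nonspecific alkaline phosphatase, averaged 755 in transgenic and 774 in control samples.

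On the side of the osteoclast, 9 of 14 genes of RANK signalling and related factors were tested, with 4 positive and 5 negative differences, 0 calls and a median of -0.04 log2. Il6, a cytokine that raises RANKL in stromal cells, stood at 0.62 log2 (SE 0.28), and its signals were 257, 461, 253 and 263 in transgenic samples of litters 1 to 4, against 156, 371, 133 and 154 in control samples. Each transgenic sample exceeded its littermate, as for 5.46% of all probe sets, while the groups overlapped through the control sample of litter 2. This gene and the next were named for the smallest unadjusted p in the list. Nfkb2, a subunit of the noncanonical NF-kB pathway used by RANK, stood at 0.41 log2 (SE 0.23), and neither gene passed (limma, adjusted p = 0.9999 each). The receptor gene Tnfrsf11a, which encodes RANK, did not reach the filter, with a mean of 105 in transgenic and 86.3 in control samples.

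Of 10 osteoclast markers, 4 were tested, with 4 negative differences, 0 calls and a median of -0.15 log2. Ctsk, the collagen-degrading cathepsin of osteoclasts, averaged 1497 ± 378 in transgenic and 1708 ± 467 in control samples (SD, n = 4 each), a difference of -0.18 log2 (SE 0.20), and Mmp9, a gelatinase, stood at -0.22 log2 (SE 0.23; limma, adjusted p = 0.9999 each). The summed signal of the 9 osteoclast genes measured ranged from 1947 to 2977 in transgenic and from 2312 to 3392 in control samples. Among the 5 tested members themselves, 3 differences were positive and 2 negative, with a median of 0.06 log2. These lists hold genes that cartilage and fibrous tissue also express. Some lists of other cell types leaned the same way, with 0 positive and 4 negative differences for neutrophils (median -0.33 log2), 1 and 8 for perichondrium and fibroblasts, and 1 and 4 for macrophages. Erythroid genes had 1 and 2, endothelial genes 2 and 4, and cartilage genes 6 and 8. Skeletal muscle, with 5 and 5, and hypertrophic chondrocytes, with 4 and 4, were even. Over all genes tested 5561 differences were positive and 5418 negative. None of these genes passed, and the part of cell composition was not tested.

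**Figure D4:**
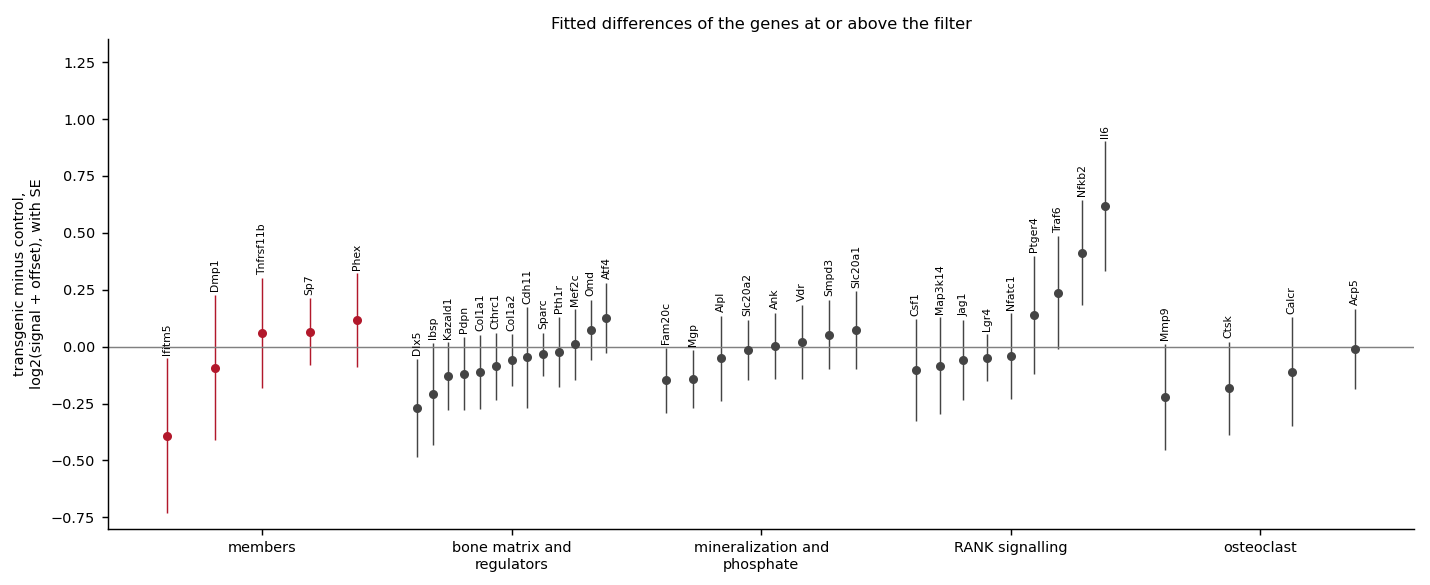
Fitted differences between genotypes, transgenic minus control on the scale log2(signal + 22.2), with their SEs, for the genes at or above the filter in 5 lists. The members lie between -0.39 and 0.12, and Il6 at 0.62 has the largest positive difference shown; no gene passed the test.

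The genes whose signals ran most like those of each tested member were found by Pearson correlation over the 8 arrays, among 10978 other genes. For Sp7 they were Bach2 (r = 0.97), Synj1 (0.95) and 0610010F05Rik (0.95). For Ifitm5 they were Mknk2 (0.98), Eno2 (0.98) and 5031425E22Rik (0.97), and for Phex Rdh14 (0.96), Gpd1l (0.94) and Cntd1 (0.93). Dmp1 ran most like Emp2 (0.93), Cdc42ep4 (0.93) and Cldn34c1 (0.93), and Tnfrsf11b like Spin4, Bet1 and Hykk (0.98, 0.98 and 0.97). Over 0.9 were 94 genes for Tnfrsf11b and 50 for Ifitm5, but 6 for Dmp1. With 8 arrays that share litters in pairs, and this many genes compared, such values describe these arrays only; no other member and no gene of the bone lists was among the most alike.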

How the data were processed

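The authors deposited 1 intensity signal per probe set and array on a linear scale. The submitters' processing notes name MAS5; its version and the detection calls are not given in the sources used here. The deposited signals had a mean of 500 on every array after trimming 2% at each end. Platform annotation of probe sets gave 34945 with 1 symbol, and the 64 Affymetrix control probe sets were left out. All 7 members were found by Entrez ID in a RefSeq gene table, and promoter sequences are RefSeq's, build GRCm38.p6.

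An offset of 22.2, the 20th percentile of all values, was added before taking log2, and the values were tested with limma 3.58.1 in R 4.3.3 (lmFit, then eBayes with trend = TRUE, two-sided, no covariates, Benjamini-Hochberg over all probe sets tested). A gene was represented by its brightest probe set. The number of arrays limits the precision, with a median half-width of the 95% intervals of 0.36 log2. The steps were tested on simulated data.

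The labels tie replicate numbers to litters. After group means were subtracted, littermate arrays correlated at 0.03, 0.44, 0.38 and 0.38 for litters 1 to 4, against at most 0.06 for a control array with another litter's transgenic array, so the pairing was not seen for litter 1. P-values set a difference against the spread between these samples. In the main fit between genotypes, which has no litter term, that spread includes differences between litters. Of the 10979 genes tested by limma, 99 had an unadjusted p under 0.05 in that fit and 336 with litter as a block. After adjustment 0 passed in either. Members, lists and the rule for named genes (all members, the 3 most alike genes of each tested member, and the 2 smallest p of each bone list) were chosen with earlier results of these data known. Alternatives were litter as a block, other offsets, filters and scalings, no trend, an unmoderated test, and leaving out arrays or litters.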

Additional observations from a re-analysis of the deposited data

Results flagged for a closer look

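Within each genotype, the gap between the most extreme of the 4 samples and its neighbour was divided by that group's range, in 36 groups of values from the members and the marker genes. In 5 groups a sample stood apart by Dixon's 95% critical value, where chance gives about 1.8. Tnfrsf11b 1418309_at was low in replicate 2 of both genotypes, at 233 in transgenic (next 340) and 224 in control samples (next 383), so the same litter stood apart in each. Ifitm5 was high in control replicate 2, at 227 (next 115). Among the markers, Ibsp was low in transgenic replicate 1 at 427 (next 564), and Col2a1 was high in transgenic replicate 2 at 45059 (next 40101).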

How the results depend on the processing

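Between genotypes, limma called 0 probe sets under every alternative tried, the replicate block by litter included, where 0 of 22495 passed with a smallest adjusted p of 0.979; the block changed no call of a member. Over 235 alternative estimates of the 12 member probe sets, 0 passed and 13 had the opposite sign, all with arrays or litters left out. Leaving these out gave -0.017 to 0.15 log2 for Sp7, -0.41 to 0.16 for Dmp1 1443745_s_at, -0.12 to 0.21 for Tnfrsf11b 1449033_at and -0.32 to 0.0025 for Tnfrsf11b 1418309_at. The direction is not settled for these probe sets. Dmp1 1443746_x_at lay between -0.81 and -0.56 log2 and Tnfsf11 1451944_a_at between 0.43 and 0.81 with these left out. Offsets of 1 and 100 moved the dim probe sets further, to -0.93 and -0.38 for Dmp1 1443746_x_at, 1.62 and 0.23 for Tnfsf11 1451944_a_at, 1.53 and 0.22 for Tnfsf11 1419083_at and -0.94 and -0.25 for Mepe. The number of probe sets called between litters was 995 without the filter, and 562 to 3064 with 1 litter left out, which also leaves fewer samples. Differences of the same sign in 4 litters were seen for 3 member probe sets (over all probe sets 5.46% were higher and 5.97% lower in all 4). They were seen for 4 with quantile normalization and for 6 with each array centred on its median. The shares over all probe sets were not computed under those settings, so these counts have no background to be read against. Centring takes off the difference in array median between littermates, which was -0.054 log2 in litter 2 and 0.027 in litter 4. The probe sets it added had a value near 0 that crossed 0. In litter 2 Sp7 moved from -0.051 to 0.0026 log2 and Phex 1421979_at from -0.050 to 0.0038. In litter 4 Dmp1 1426005_at moved from 0.013 to -0.015. The cause of the differences in array median was not tested. For this count both settings were added after seeing the data. Settings without the filter for the dim members were also added then.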

Other observations

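The control samples of litters 2 and 3 had the highest control signals for all 3 probe sets of Dmp1, and the same held for the bone genes Ibsp and Dlx5 and for Mmp9, which is made by osteoclasts. It also held for the dim probe set 1419083_at of Tnfsf11 and for Fam20c, at 567, 756, 593 and 550 in control samples of litters 1 to 4. Mmp9 was 142, 139, 167 and 163 in transgenic samples of litters 1 to 4, against 125, 259, 239 and 136 in control samples. This order of the control samples did not hold for any probe set of Sp7, Ifitm5, Phex, Mepe or Tnfrsf11b, nor for Tnfsf11 1451944_a_at. Sp7, for one, was 309, 362, 443 and 379 in control samples of litters 1 to 4. Several other genes named here did not follow either. Ctsk was 1722, 1134, 1909.7 and 1223 in transgenic samples, against 1425, 1252, 2293 and 1862 in control samples. The control sample of litter 2 was below that of litter 1 for Col1a1 (20227 against 20507), and Mgp was highest in control litter 4. The likeness was noticed after the values were seen and was not tested, and its share over all probe sets was not computed.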
